A study of Homo sapiens with 16 samples.

Results

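The HOX genes of the 4 human clusters were described in poly(A)-selected RNA sequencing libraries of 2 clear cell renal cell carcinoma lines that differed in SETD2, the methyltransferase that places the H3K36 trimethyl mark along transcribed genes. Members were the gene names made of HOX, a cluster letter from A to D and a number. The count tables held 39 of them among 60606 gene names, of which 11 lay in HOXA (chr7:27092993-27200091), 10 in HOXB (chr17:48528526-48728750), 9 in HOXC (chr12:53938831-54056030) and 9 in HOXD (chr2:176092721-176190907), all on GRCh38 as the files give them. HOXA and HOXB run on the minus strand, HOXC and HOXD on the plus strand.

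HOX genes encode homeodomain transcription factors. Along each cluster they lie in numbered paralog groups, from 1 at the 3′ end to 13 at the 5′ end, and in the embryo the 3′ genes are switched on earlier and closer to the head than the 5′ genes. Their proteins bind DNA with PBX and MEIS partners. Polycomb complexes, which place the H3K27 trimethyl mark, hold silent HOX genes off, while MLL complexes keep active ones on. The kidney and many renal tumours keep expression of a large set of HOX genes.

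Of the 16 libraries, 12 came from 786-O and 4 from A498, both lines derived from human kidney cancer. In 786-O there were SETD2 KO cells in A1331852, SETD2 WT cells in A1331852, SETD2 KO cells in DMSO and SETD2 WT cells in DMSO, with 3 libraries each. A1331852 blocks BCL-XL, a protein that protects cells from apoptosis, and was given at 100 nM, and DMSO is its solvent. In A498 there were SETD2-deficient cells, whose genotype label is SETD2 null, and add-back cells, labelled SETD2 WT, with 2 libraries each and no treatment. RNA was taken after 72 h. The labels name 3 batches. All A1331852 libraries and replicate 3 of both DMSO groups were batch 1, DMSO replicates 1 and 2 were batch 2, and A498 was batch 3. How the KO was made, how many clones it holds and whether replicates were separate cultures are not stated in the sources used here, so the p-values measure the spread between these libraries, which may be technical.

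Library totals ran from 14172118 to 36037616 counted fragments, and 9248 to 26299 of them fell on HOX genes. SETD2 stood at 30.2, 50.8 and 55.8 CPM (counts scaled to the library total) in the KO A1331852 libraries and 75.1, 69.3 and 61.7 CPM in the WT A1331852 libraries, a log2 change of -0.65 ± 0.18 (adjusted p = 0.0168) in edgeR's quasi-likelihood test. It stood at 29.0, 27.3 and 32.5 CPM in KO DMSO against 61.2, 62.7 and 65.9 CPM in WT DMSO, a log2 change of -1.21 ± 0.18 (adjusted p = 7.39e-04) by edgeR. In A498 it stood at 39.0 and 55.5 CPM in deficient cells and 48.3 and 56.7 CPM in add-back cells, a log2 difference of 0.00 ± 0.17 (adjusted p = 0.991) by edgeR, so its RNA does not check the A498 labels. Of 11 renal markers, 8 reached 1 CPM in every group, PAX8 among them at 129 to 325 CPM, while the carcinoma markers CA9 (at most 0.79 CPM) and NDUFA4L2 (at most 0.72 CPM) and the tubule marker LRP2 (at most 0.11 CPM) were near 0. Summed endothelial markers were at most 0.45 CPM. The leukocyte list was near 0 except LCP1 in 786-O and ITGAM and LCP1 in A498. ITGAM had 1.22 and 1.52 CPM in A498 deficient cells and 2.38 and 2.30 CPM in add-back cells, and LCP1 at most 1.37 CPM there. The list's sum ran from 164 to 171 CPM in KO A1331852, 18.8 to 30.8 CPM in WT A1331852, 81.7 to 146 CPM in KO DMSO and 19.0 to 68.6 CPM in WT DMSO. The leukocyte marker PTPRC had no count in 12 of the 16 libraries. The fibroblast list summed to 4.15 to 14.3 CPM in 786-O and 46.6 to 63.2 CPM in A498. COL1A1 made up most of it in A498, while in WT A1331852 LUM was the highest gene of the list. The part of these markers in the HOX results was not tested. WT A1331852 replicate 3 stood apart, with 552.73 CPM of HOX counts against 782.95 and 684.27 CPM in the other 2, and the members' calls, medians and HOXB and HOX sums for KO against WT in A1331852 are given also without it.

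The promoter windows of some members that the comparisons below turn on are shown first, to place the genes and their CpG content, since Polycomb and MLL complexes both bind CpG-rich DNA. Of the 39 members, 20 had at least 1 window in the RefSeq table used here (GRCh38.p14), each reaching from 250 bases before a start to 50 bases after it, with 27 windows in all. No window was used for HOXB2, HOXB3, HOXB4, HOXB7, HOXB8 or HOXC13. HOXA13 was called higher in KO than in WT 786-O cells in both treatments, HOXD8 in DMSO and HOXD3 in A1331852. HOXD13 had 3 counts in all of 786-O, and HOXC4 had the largest log2 difference upward in 786-O over A498. HOXC4 and HOXC5 share 1 start. Sequences read 5′ to 3′ on the gene's strand, and capitals mark each CG.
HOXA13, chr7:27200042-27200341, minus strand: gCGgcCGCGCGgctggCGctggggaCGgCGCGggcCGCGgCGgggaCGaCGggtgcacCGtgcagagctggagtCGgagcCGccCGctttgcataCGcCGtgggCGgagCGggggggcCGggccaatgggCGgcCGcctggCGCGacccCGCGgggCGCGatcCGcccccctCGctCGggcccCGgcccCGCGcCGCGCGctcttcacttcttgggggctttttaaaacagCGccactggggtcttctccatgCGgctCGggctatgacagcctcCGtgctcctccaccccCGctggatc
HOXD8, chr2:176129455-176129754, plus strand: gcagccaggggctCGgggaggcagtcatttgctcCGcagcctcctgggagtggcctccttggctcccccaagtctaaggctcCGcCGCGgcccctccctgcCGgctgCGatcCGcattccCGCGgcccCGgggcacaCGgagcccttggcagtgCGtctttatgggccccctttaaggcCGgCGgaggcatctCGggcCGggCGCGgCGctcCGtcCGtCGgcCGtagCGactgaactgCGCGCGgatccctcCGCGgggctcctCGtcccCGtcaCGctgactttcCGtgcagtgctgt
HOXD3, chr2:176157057-176157356, plus strand: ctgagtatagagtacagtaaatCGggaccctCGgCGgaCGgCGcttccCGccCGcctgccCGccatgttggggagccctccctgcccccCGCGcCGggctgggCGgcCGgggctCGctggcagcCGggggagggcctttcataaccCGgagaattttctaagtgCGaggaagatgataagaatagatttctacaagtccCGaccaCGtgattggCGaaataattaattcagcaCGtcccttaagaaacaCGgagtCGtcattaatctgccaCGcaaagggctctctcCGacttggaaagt
HOXD13, chr2:176092471-176092770, plus strand: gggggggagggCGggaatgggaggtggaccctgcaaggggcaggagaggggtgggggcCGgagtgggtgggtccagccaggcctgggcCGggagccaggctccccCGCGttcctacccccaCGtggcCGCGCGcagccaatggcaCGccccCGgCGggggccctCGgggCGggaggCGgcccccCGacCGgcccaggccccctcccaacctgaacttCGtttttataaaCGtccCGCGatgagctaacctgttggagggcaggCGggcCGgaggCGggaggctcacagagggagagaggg
HOXC4 and HOXC5, chr12:54016638-54016937, plus strand: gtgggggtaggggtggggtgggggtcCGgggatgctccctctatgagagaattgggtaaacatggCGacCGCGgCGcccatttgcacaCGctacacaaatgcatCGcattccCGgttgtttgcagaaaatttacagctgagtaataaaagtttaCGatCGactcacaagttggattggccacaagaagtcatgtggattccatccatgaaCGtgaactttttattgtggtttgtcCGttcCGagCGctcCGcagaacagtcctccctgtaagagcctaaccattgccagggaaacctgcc

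Those 300 bases held 44 CG in HOXA13, 34 in HOXD8, 25 in HOXD3, 24 in HOXD13 and 15 in HOXC4. The median over the 27 HOX windows was 22.0 CG, with an observed-to-expected CpG ratio of 0.85, beside 14 CG and 0.58 over all 35116 windows of the table and 21.0 CG and 0.74 over the 22199 windows of protein-coding genes. The members' range was wide, from 0 CG at 1 of the 7 HOXA3 starts to 44 CG at HOXA13. The motif TGATNNAT, a pattern bound by PBX and HOX proteins together, was searched on both strands. It lay in 3 of the 27 windows (11.1%), those of HOXA2, HOXB1 and HOXD11, and in 7.4% of all windows, so none of the 5 printed windows holds these letters.

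In both lines most of the HOX genes were on. Levels are given in TPM, in which each count is divided by the gene's exonic length and scaled to the library, so that genes can be compared. A mean of at least 1 CPM in some group was reached by 33 of the 39 members, and 29 reached 1 CPM in all 16 libraries. The summed HOX level was 1086 ± 3.74 TPM in KO A1331852, 949 ± 167 TPM in WT A1331852, 1117 ± 77.0 TPM in KO DMSO and 1009 ± 88.5 TPM in WT DMSO (SD, n = 3 each). It was 1007 ± 96.9 TPM in A498 deficient cells and 1076 ± 23.0 TPM in add-back cells (SD, n = 2 each). HOXA held the largest share of it in WT DMSO, 44.8% to 52.9%, followed by HOXB at 24.2% to 31.5%, HOXD at 15.6% to 16.7% and HOXC at 6.70% to 7.30%. In KO A1331852 the order of the first 2 was turned, with 35.2% to 36.4% from HOXA and 42.2% to 44.2% from HOXB.

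**Figure D1:**
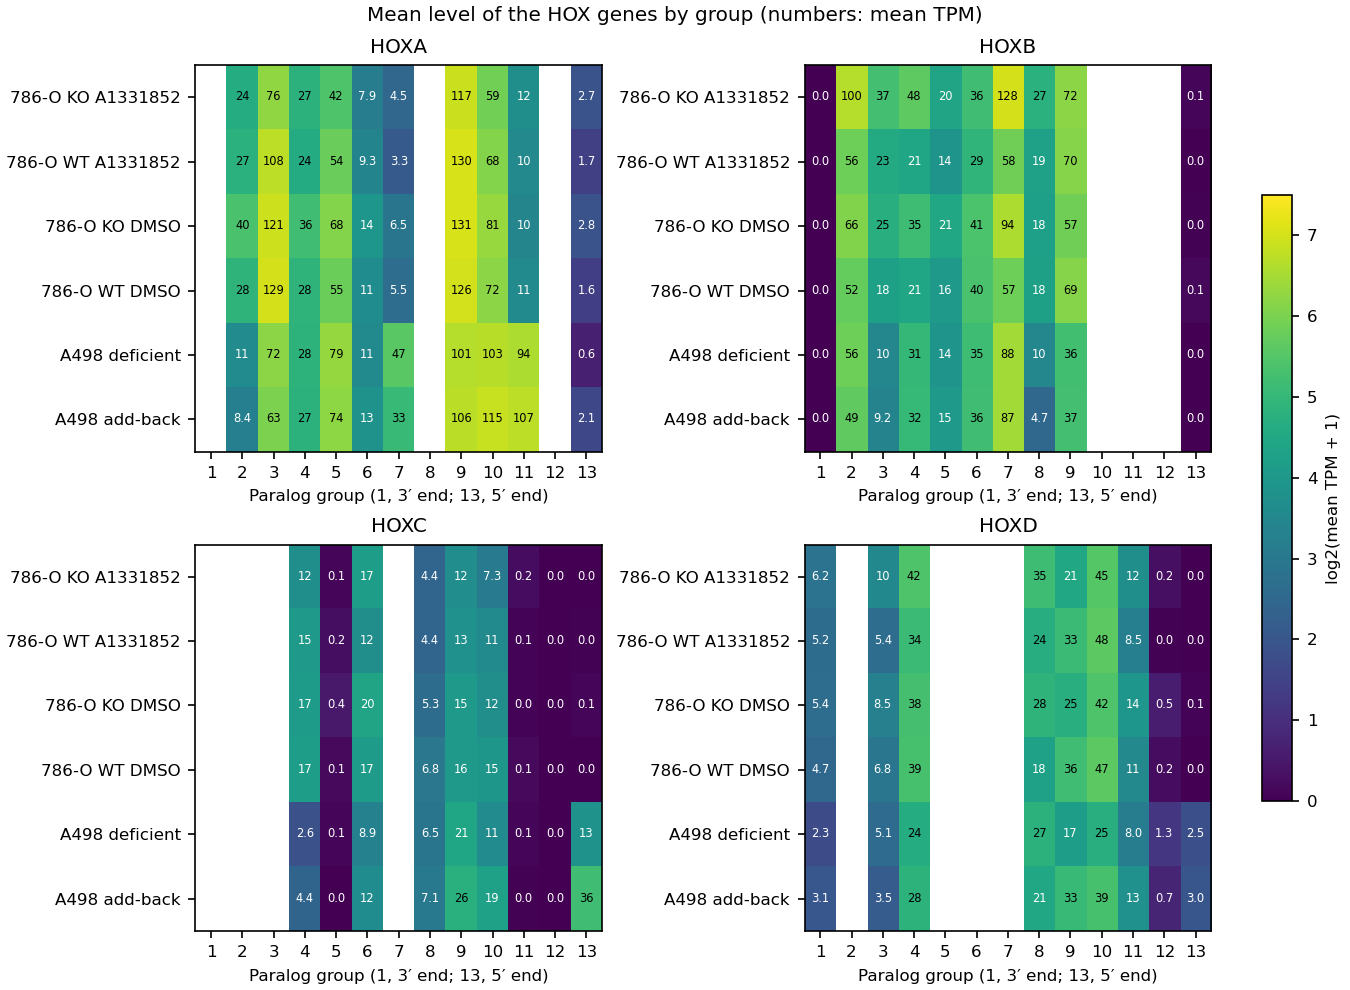
Mean level of the HOX genes in the 6 groups, by cluster (panels) and paralog group (columns). Colour is log2(mean TPM + 1), numbers are mean TPM, and white cells hold no gene or none shown here. HOXA3, HOXA9, HOXA10, HOXB2 and HOXB7 exceed 49 TPM in all 6 groups, and HOXC13 is off in 786-O and on in A498.

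The 6 members without a mean of 1 CPM were HOXB1, HOXB13, HOXC5, HOXC11, HOXC12 and HOXD12. HOXC12 had no count in any library, HOXB1 had 1 count in all, and HOXB13, a gene of the prostate and tail end of the body, had 8. Over the 80990923 counts of the 786-O WT DMSO group, a sum of 0 allows up to 3 counts, and such limits cover counting error only. For 8 members more than 10% of the exonic bases are shared with another gene on the same strand, up to 67.3% in HOXC5, 31.3% in HOXA4, 21.4% in HOXD11 and 18.2% in HOXD10. Fragments in shared bases cannot be assigned to 1 gene, so the levels of these 8 members are uncertain, most of all that of HOXC5.

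In HOXA, the 3′ genes HOXA2 and HOXA3 pattern the hindbrain and pharyngeal arches. HOXA3 averaged 129 ± 35.9 TPM in 786-O WT DMSO and 63.3 ± 4.79 TPM in A498 add-back (SD, n = 3 and n = 2 here and below). HOXA2 averaged 28.1 ± 6.56 TPM in 786-O WT DMSO and 8.36 ± 0.394 TPM in A498 add-back. Both had the higher mean in 786-O. Of the central genes, HOXA5, which in mice is needed for the lung, averaged 55.3 ± 21.4 TPM in 786-O WT DMSO and 74.1 ± 4.53 TPM in A498 add-back. HOXA4 averaged 28.2 ± 1.59 TPM in 786-O WT DMSO and 27.1 ± 0.161 TPM in A498 add-back. HOXA6 averaged 11.5 ± 3.37 TPM in 786-O WT DMSO and 13.4 ± 3.96 TPM in A498 add-back. The SDs of HOXA6 overlap between the lines, and those of HOXA7 do not. HOXA7 averaged 5.46 ± 0.310 TPM in 786-O WT DMSO and 33.0 ± 2.26 TPM in A498 add-back. HOXA9, a driver of blood progenitor growth, averaged 126 ± 28.1 TPM in 786-O WT DMSO and 106 ± 10.9 TPM in A498 add-back. HOXA10, known for its part in the uterus and in blood cells, averaged 71.8 ± 2.80 TPM in 786-O WT DMSO and 115 ± 5.25 TPM in A498 add-back. HOXA11 acts with its paralogs in the first steps of kidney formation in mice. It averaged 11.1 ± 1.40 TPM in 786-O WT DMSO and 107 ± 3.39 TPM in A498 add-back. HOXA13, which shapes the digits and the urogenital tract, was the lowest gene of the cluster in all 6 groups, and it averaged 1.60 ± 0.253 TPM in 786-O WT DMSO and 2.09 ± 0.204 TPM in A498 add-back.

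In HOXB, 8 of 10 genes were expressed, from group 2 to group 9. HOXB9 averaged 69.1 ± 14.1 TPM in 786-O WT DMSO and 37.4 ± 1.00 TPM in A498 add-back. HOXB7 averaged 57.0 ± 6.99 TPM in 786-O WT DMSO and 86.9 ± 0.697 TPM in A498 add-back. The first of these led the cluster in 786-O WT DMSO and the other one in A498. HOXB2, a hindbrain gene, averaged 51.9 ± 4.40 TPM in 786-O WT DMSO and 49.4 ± 2.00 TPM in A498 add-back. HOXB6 averaged 39.9 ± 8.90 TPM in 786-O WT DMSO and 36.1 ± 4.94 TPM in A498 add-back. HOXB5 averaged 15.6 ± 1.41 TPM in 786-O WT DMSO and 15.2 ± 1.16 TPM in A498 add-back. The SDs of these 3 overlap between the lines. HOXB4, which expands blood stem cells, averaged 20.5 ± 5.03 TPM in 786-O WT DMSO and 31.6 ± 0.146 TPM in A498 add-back. HOXB3 averaged 18.3 ± 4.44 TPM in 786-O WT DMSO and 9.17 ± 0.652 TPM in A498 add-back. HOXB8 averaged 18 ± 2.01 TPM in 786-O WT DMSO and 4.72 ± 0.249 TPM in A498 add-back. No expressed HOXB gene lay under 1 TPM in any group.

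HOXC had the lowest sum of the 4 clusters in all 6 groups, and HOXD the next lowest. In 786-O WT DMSO the expressed HOXC genes lay close together, from 6.84 TPM of HOXC8 to 17.0 TPM of HOXC4, with HOXC6 at 16.6 ± 2.88, HOXC9 at 15.6 ± 3.19 and HOXC10 at 14.7 ± 1.37 TPM. In A498 add-back HOXC13, a regulator of hair keratins, led the cluster. HOXD10 led HOXD in both, at 47.4 ± 4.88 TPM in 786-O WT DMSO and 38.5 ± 1.06 TPM in A498 add-back. Its cluster mates in 786-O WT DMSO were HOXD4 at 39.1 ± 4.82, HOXD9 at 35.7 ± 14.2, HOXD8 at 18.5 ± 2.08, HOXD11 at 10.6 ± 0.959, HOXD3 at 6.77 ± 2.31 and HOXD1 at 4.72 ± 1.29 TPM. Among the 12 highest members of a group, 10 of the 11 steps between neighbours in rank overlapped between libraries in WT DMSO, 10 of 11 in WT A1331852, 9 of 11 in both KO groups, 7 of 11 in A498 deficient and 4 of 11 in A498 add-back, so most neighbours in this order did not differ beyond their spread in 786-O.

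The first comparison asked what SETD2 loss did to the clusters in 786-O cells kept in DMSO. KO cells held more HOXA13, HOXB4 and HOXD8 RNA than WT cells, each by less than 1 on the log2 scale. Of 31 members tested, 3 were higher and 0 lower by edgeR's quasi-likelihood test at an adjusted p under 0.05, with p adjusted over all 16260 genes tested. The background was 18.5% of all genes called, 8.29% higher and 10.2% lower, and the members' share of calls is below it. The median log2 change of the members was 0.08, against -0.02 over all genes. The libraries are of bulk cultures, so more expressing cells and more RNA per cell cannot be told apart.

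HOXD8 had 26.6, 25.6 and 33.0 TPM in the KO DMSO libraries and 16.3, 18.8 and 20.4 TPM in the WT DMSO libraries. All 3 KO values lie above all 3 WT values, and the log2 change was 0.51 ± 0.15 (adjusted p = 0.0387), with 0.59 within batch 1 and 0.48 within batch 2. HOXB4 had 33.6, 31.3 and 39.3 TPM in KO DMSO and 22.3, 24.4 and 14.8 TPM in WT DMSO. Its groups did not overlap either, and the log2 change of 0.66 ± 0.21 (adjusted p = 0.0452) was 1.29 within batch 1 and 0.37 within batch 2, and the WT library of batch 1 is the lowest. HOXA13 had 3.24, 2.92 and 2.23 TPM in KO DMSO and 1.40, 1.52 and 1.89 TPM in WT DMSO, with 149, 126 and 55 counts against 65, 58 and 38 counts behind them. The fitted log2 change of 0.72 ± 0.21 (adjusted p = 0.0361) was 0.13 within batch 1 and 0.95 within batch 2. HOXB7 with 0.62 ± 0.21 (adjusted p = 0.0597) and HOXB3 with 0.36 ± 0.12 (adjusted p = 0.0562) missed the threshold.

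These 3 calls were not stable to the libraries. Leaving out any 1 of the 6 DMSO libraries left at most 1 call. The same fits called 9.63% to 10.6% of all genes, against 18.5% with every library. Without KO DMSO replicate 1 or 2 or WT DMSO replicate 1 or 2 none was left, and without replicate 3 of either group HOXA13 was. Batch 2 alone, with 2 libraries a group, called 17 of 32 members, where it called 55.7% of all genes. Batch 1 alone, with 1 DMSO library a genotype, called 0 members and 0.305% of all genes. KO and WT replicates of the same number deviated together, but replicates 1 and 2 did so across numbers too, so their pairing was not shown. With the replicate number as a block within treatment 7 members passed, 5 higher and 2 lower. The added ones were HOXB3 and HOXB7 (higher) and HOXB9 and HOXD9 (lower). That fit called 28.6% of all genes, so the members' share, 22.6%, lay below it too.

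The same contrast was then made in A1331852. Genes of HOXB groups 2, 3, 4, 7 and 8 had higher levels in KO than WT cells under the inhibitor, together with HOXD3 and HOXA13, and HOXC10 was lower. That is 7 higher and 1 lower of 31 members, against a background of 28.2% of genes called, 13.2% higher and 15% lower. The members' share of calls, 25.8%, is below the background, with the count higher above its background share and the count lower below it. Without WT A1331852 replicate 3, 7 were higher and 7 lower, where 15.7% of all genes were higher and 16.8% lower, so the count lower was then above its background share too. By cluster, 5 of 8 tested HOXB genes, 1 of 7 in HOXD, 1 of 11 in HOXA and 0 of 5 in HOXC were higher, and the median log2 change was 0.56 in HOXB, 0.24 in HOXD, -0.19 in HOXA and -0.20 in HOXC, against -0.01 over all genes. Without WT A1331852 replicate 3 the medians were 0.57 in HOXB, 0.32 in HOXD, -0.26 in HOXA and -0.16 in HOXC. Summed leukocyte markers, nearly all LCP1, were also higher in KO A1331852, while PTPRC was at most 0.36 CPM and CD3E at most 0.06 CPM in any library. Summed fibroblast markers were 4.15 to 4.87 CPM in KO A1331852 and 9.29 to 14.3 CPM in WT A1331852, of which LUM made up 0.930, 1.16 and 1.48 CPM in KO A1331852 and 7.30, 6.83 and 8.13 CPM in WT A1331852. The part of either list was not tested.

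HOXB2 had 112, 97.3 and 90.9 TPM in KO A1331852 and 59.6, 58.3 and 50.02 TPM in WT A1331852. The lowest KO library lies above the highest WT library by a wide margin, and the log2 change was 0.77 ± 0.14 (adjusted p = 0.00186). HOXB4 had 41.7, 51.6 and 51.9 TPM in KO A1331852 and 19.9, 17.4 and 25.4 TPM in WT A1331852, 2.18-fold higher, with a log2 change of 1.13 ± 0.21 (adjusted p = 0.00216). HOXB7, a homeobox gene that is high in several carcinomas, had 164, 121 and 99.8 TPM in KO A1331852 and 71.9, 59.7 and 42.0 TPM in WT A1331852. It ranked first among all HOX genes in the KO A1331852 group, though its range overlapped that of HOXA9, and its log2 change was 1.10 ± 0.21 (adjusted p = 0.00265). HOXB3 had 30.3, 37.6 and 43.8 TPM in KO A1331852 and 24.8, 22.3 and 21.3 TPM in WT A1331852, a log2 change of 0.62 ± 0.12 (adjusted p = 0.00255).

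HOXB8, which in mice marks a set of brain microglia, had 26, 25.4 and 29.1 TPM in KO A1331852 and 18.9, 17.3 and 19.3 TPM in WT A1331852, a log2 change of 0.46 ± 0.14 (adjusted p = 0.0301). HOXB5 at 0.49 ± 0.20, HOXB6 at 0.23 ± 0.14 and HOXB9 at -0.05 ± 0.17 did not pass. The HOXB sum was 457 to 479 TPM in KO A1331852 and 273 to 313 TPM in WT A1331852, with no overlap. Over WT replicates 1 and 2 alone its mean was 292.88 ± 28.45 TPM and that of the whole HOX sum 1030 ± 127 TPM (SD, n = 2). HOXD3 had 9.82, 11 and 10.0 TPM in KO A1331852 and 6.04, 4.76 and 5.5 TPM in WT A1331852, a log2 change of 0.85 ± 0.19 (adjusted p = 0.00561). HOXD8, at 37.3, 34.1 and 33.5 TPM in KO A1331852 and 23.3, 21.9 and 28.0 TPM in WT A1331852, just missed the threshold with 0.44 ± 0.15 (adjusted p = 0.0513). HOXC10, which in mice patterns the lumbar spinal cord, had 6.39, 7.39 and 8.07 TPM in KO A1331852 and 11.7, 10.9 and 9.55 TPM in WT A1331852, and its log2 change of -0.64 ± 0.16 (adjusted p = 0.00989) was the 1 call downward. HOXA13 passed narrowly, with 0.64 ± 0.22 (adjusted p = 0.0491) on 68, 56 and 53 counts in KO A1331852 and 37, 48 and 36 counts in WT A1331852.

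**Figure D2:**
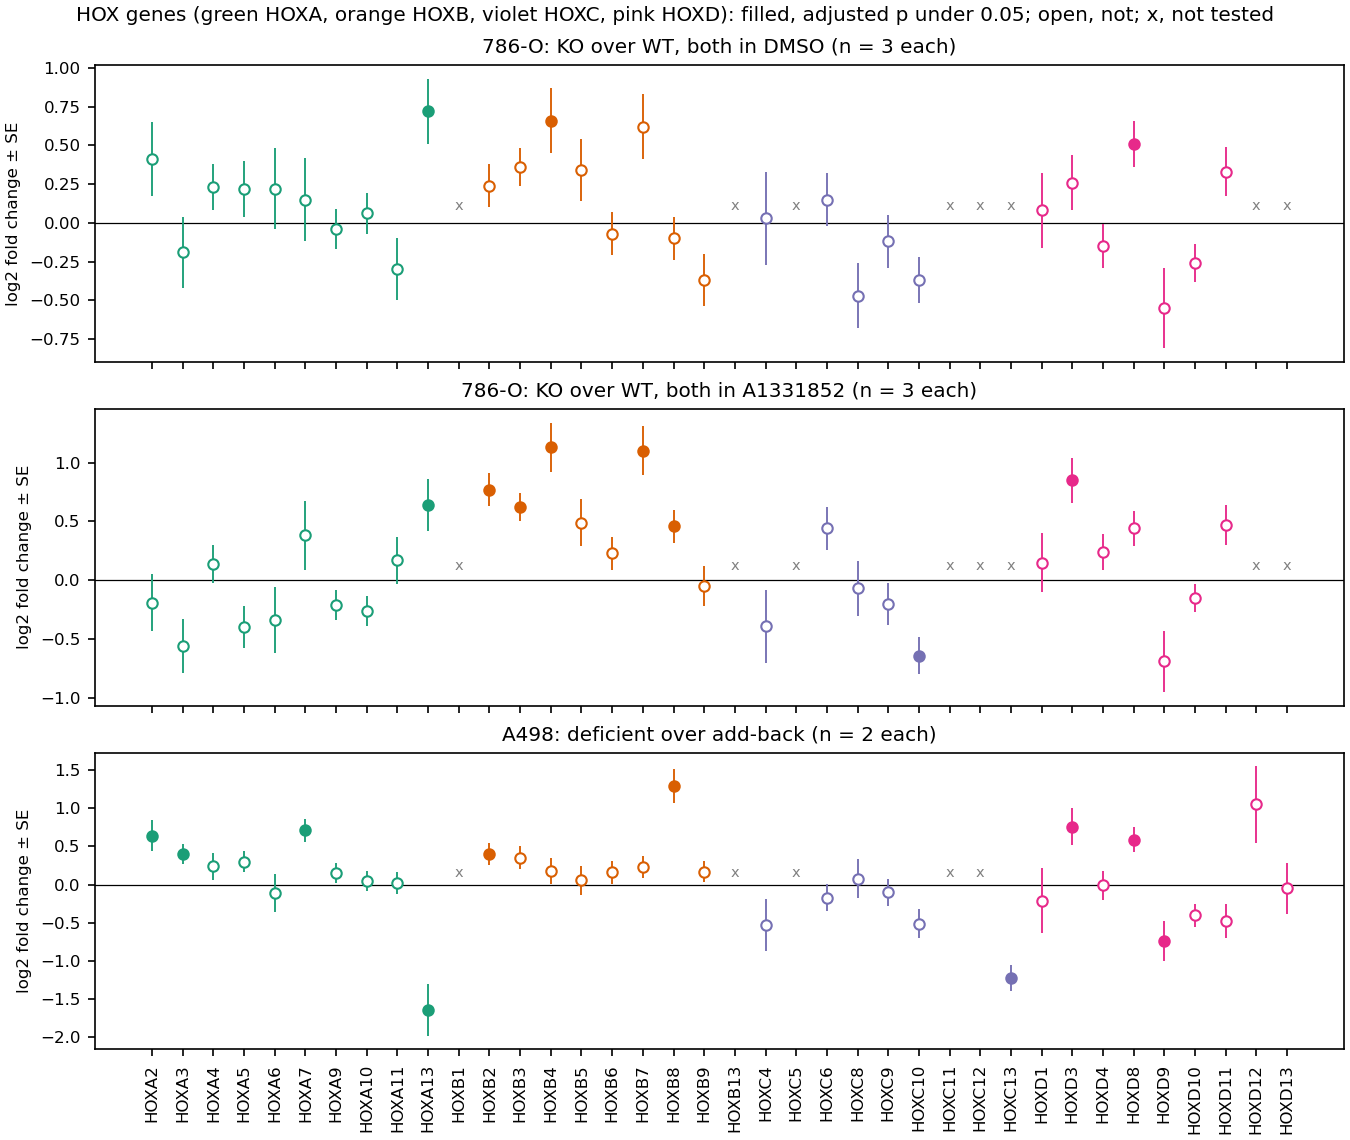
Log2 fold change ± SE of the tested HOX genes shown, in cluster order, for KO over WT in DMSO (top), KO over WT in A1331852 (middle) and A498 deficient over add-back (bottom). Filled points passed an adjusted p under 0.05, and the middle panel shows 5 filled HOXB points above 0 while HOXA13 lies above 0 in 786-O and at -1.64 in A498.

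HOXB2, HOXB3, HOXB4, HOXB7, HOXC10 and HOXD3 stayed called whichever of the 6 A1331852 libraries was left out, with an adjusted p of at most 0.0389. HOXA13 was lost in each of those 6 fits and HOXB8 in 4 of them. Without WT A1331852 replicate 3, the library that stands apart, 14 members were called, 7 higher and 7 lower, where 32.5% of all genes were called, 15.7% higher and 16.8% lower. The 6 added downward calls were HOXA3 at -0.86, HOXA5 at -0.54, HOXA9 at -0.35, HOXA10 at -0.37, HOXC4 at -0.70 and HOXD9 at -0.89 on the log2 scale, and HOXD8 was the added upward one. HOXA3 had 73.6, 80.2 and 74.2 TPM in KO A1331852 and 142, 127 and 54.9 TPM in WT A1331852, so the KO libraries lie below WT replicates 1 and 2 and above WT replicate 3. With the replicate number as a block, 14 were called over both treatments, where 39.7% of all genes were, and 11 with the block within treatment, where 38.6% were.

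The inhibitor itself was compared with DMSO within each genotype. Under A1331852 KO cells held less HOXA2, HOXA3, HOXA5, HOXA10 and HOXC10 RNA and more HOXB2 RNA than KO cells in DMSO. Of 31 members 1 was higher and 5 were lower, where the background was 13.5% of genes called, 6.46% higher and 7.08% lower. The median log2 change was -0.49 in HOXA and 0.40 in HOXB, against 0.01 over all genes. DESeq2 with its own scaling called 8, of which 3 were higher and 5 lower, and 18.9% of all genes, 9.63% higher and 9.28% lower.

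HOXA5 had 42.0, 35.3 and 50.1 TPM in KO A1331852 and 56.5, 58.1 and 88.4 TPM in KO DMSO. The values do not overlap, and the DMSO library of batch 1, replicate 3, is the highest. The batch-adjusted log2 change was -1.15 ± 0.22 (adjusted p = 0.00666), and the difference within batch 1 was -1.05. HOXA3 had 73.6, 80.2 and 74.2 TPM in KO A1331852 and 106, 104 and 154 TPM in KO DMSO, a log2 change of -1.06 ± 0.28 (adjusted p = 0.0289) and -1.0 within batch 1. HOXA2 had 26.4, 23.9 and 21.7 TPM in KO A1331852 and 35.1, 37.2 and 47.7 TPM in KO DMSO, with -1.04 ± 0.29 (adjusted p = 0.0347) and -0.97 within batch 1. For both genes, too, replicate 3 was the highest DMSO library.

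HOXA10 had 60.1, 58.2 and 59.6 TPM in KO A1331852 and 77.7, 77.9 and 86.9 TPM in KO DMSO, a log2 change of -0.53 ± 0.16 (adjusted p = 0.0465) and -0.53 within batch 1. HOXC10 had 6.39, 7.39 and 8.07 TPM in KO A1331852 and 11.9, 13 and 11.6 TPM in KO DMSO, with -0.80 ± 0.19 (adjusted p = 0.0168) and -0.65 within batch 1. HOXB2 was the opposite case, with 112, 97.3 and 90.9 TPM in KO A1331852 and 64.8, 61.3 and 72.0 TPM in KO DMSO and a log2 change of 0.61 ± 0.17 (adjusted p = 0.0357), 0.49 within batch 1. Since every A1331852 library was batch 1 and only replicate 3 of each DMSO group was, these estimates lean on those DMSO libraries. Without KO DMSO replicate 3 no call was left, where 4.68% of all genes were called. Without KO DMSO replicate 1, KO DMSO replicate 2 or KO A1331852 replicate 2 there were 2, where 7.78%, 7.94% and 8.4% of all genes were called. HOXA5 and HOXC10 each held in 5 of the 6 fits that left out a library.

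In WT cells A1331852 gave 0 calls among 31 members by edgeR, with 4 at an unadjusted p under 0.05 and 0 by DESeq2, and also 0 by edgeR without any 1 of its 6 libraries. All genes together gave 0.141% called by edgeR, 0.0369% higher and 0.105% lower, and 2.55% by DESeq2. Of the 16260 genes tested, 2080 had an unadjusted p under 0.05 by edgeR. HOXA3 had 142, 127 and 54.9 TPM in WT A1331852 and 109, 108 and 171 TPM in WT DMSO, and HOXA5 had 72.3, 48.5 and 40.6 TPM in WT A1331852 and 42.0, 44.0 and 80.1 TPM in WT DMSO, so the WT A1331852 libraries spread widely and overlap those in DMSO for HOXA5 and for HOXA3. Their log2 changes were -0.68 ± 0.28 (adjusted p = 0.333) and -0.53 ± 0.22 (adjusted p = 0.33), and -0.78 and -0.61 within batch 1. HOXB2 had a log2 difference of 0.08 ± 0.17 (adjusted p = 0.902). The difference of the responses, KO minus WT, was tested directly and passed for 0 of 31 members, with 4 at an unadjusted p under 0.05 and 0 by DESeq2, where 0.295% of all genes were called, 0.203% higher and 0.0923% lower. An unadjusted p under 0.05 by edgeR was reached there by 1762 of 16260 genes, and DESeq2 called 2.24% of all genes. The estimates of this difference were above 0 for all 8 HOXB genes tested, between 0.15 and 0.56, and 0.53 ± 0.20 (adjusted p = 0.337) for HOXB2. The lists called in KO but not in WT cells are therefore not shown to differ between the genotypes. Without WT A1331852 replicate 3, HOXA3 passed, at -0.67 ± 0.14 (adjusted p = 0.0189).

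**Figure D3:**
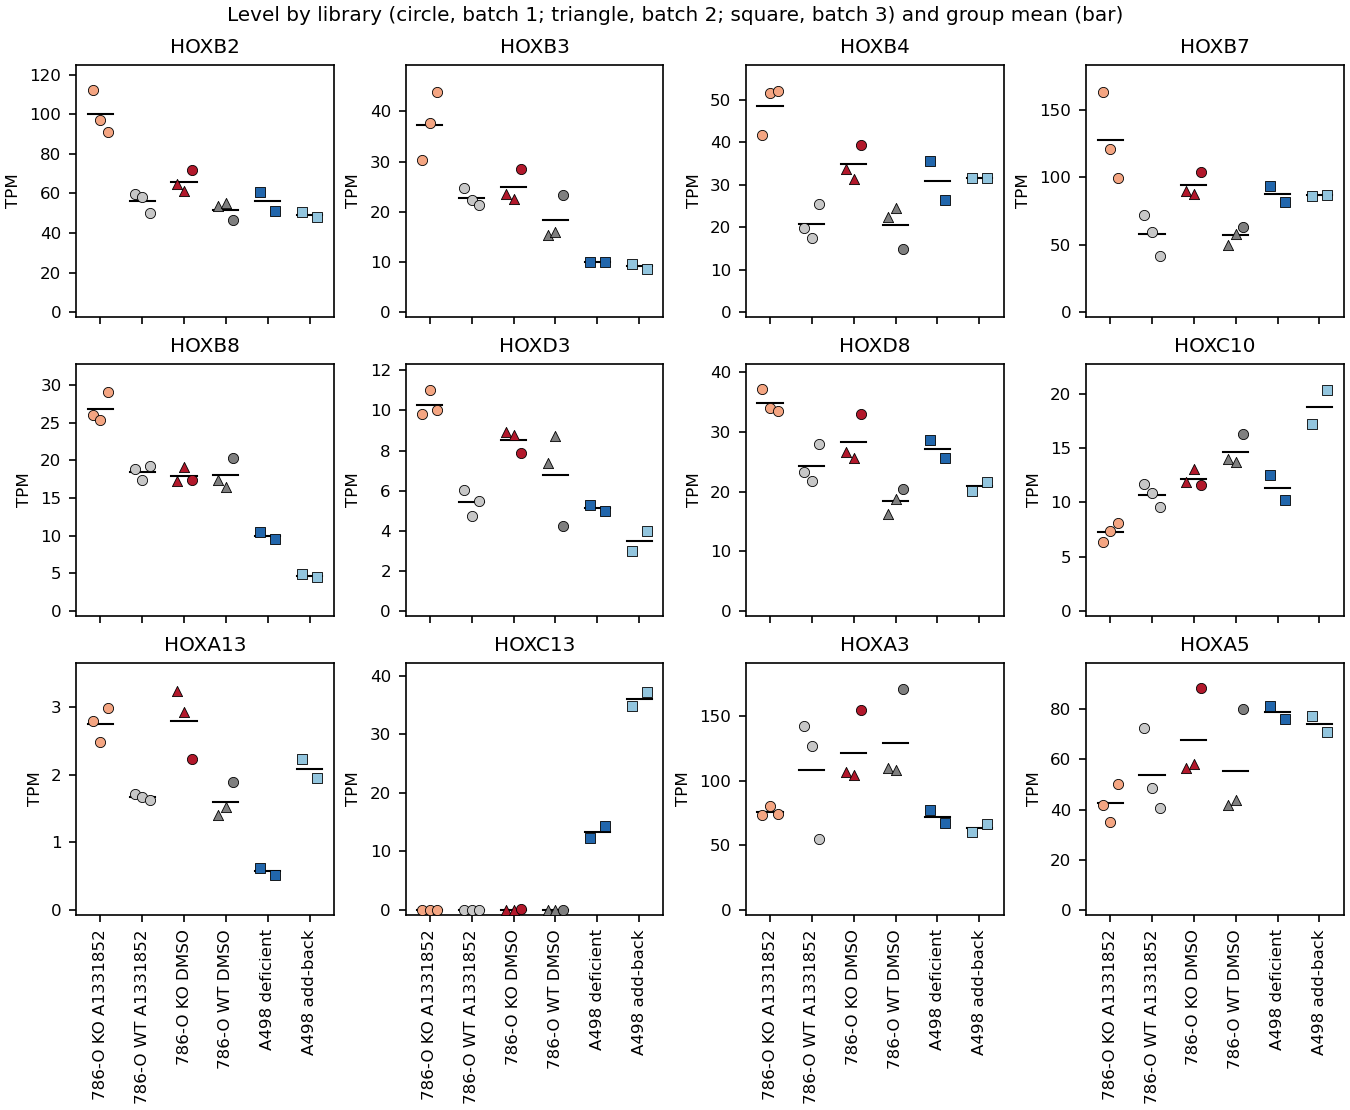
Level in TPM of 12 HOX genes in each library, by group, with the group mean as a bar and the batch as the symbol. HOXB2, HOXB4 and HOXB7 have their highest group mean in KO A1331852, the batch 1 library is the highest DMSO library of each genotype for HOXA3 and HOXA5, and HOXC13 lies near 0 in every 786-O library.

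**Figure D4:**
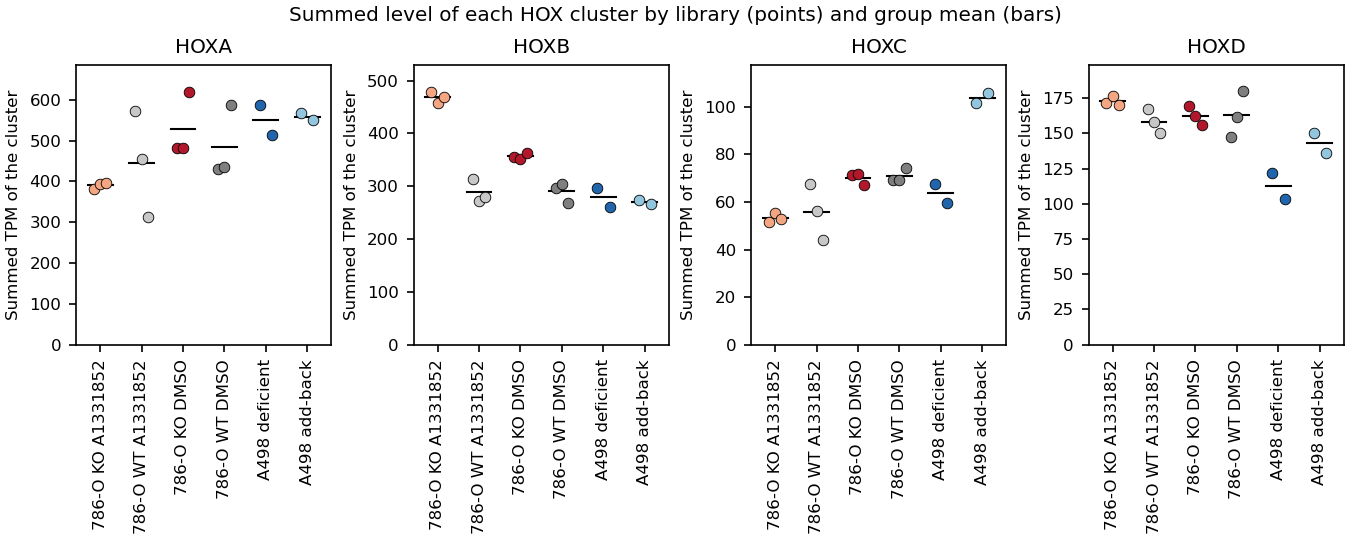
Summed TPM of each HOX cluster in every library (points) with the group mean (bars). HOXB reaches 457 to 479 TPM in KO A1331852 and 273 to 313 TPM in WT A1331852, and HOXC reaches 102 to 106 TPM in A498 add-back.

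SETD2 deficiency was next compared with add-back in A498, the second line. HOXA2, HOXA3, HOXA7, HOXB2, HOXB8, HOXD3 and HOXD8 were higher in deficient cells, and HOXA13, HOXC13 and HOXD9 were lower. That is 7 higher and 3 lower of 34 members, where 30.2% of genes were called, 15.1% higher and 15.1% lower, so the total is near the background share. The 3 lower genes are from groups 9 to 13, and the 7 higher ones from groups 1 to 8. Of all tested members, called or not, 5 of 7 in groups 1 to 3 had a log2 change above 0. So did 10 of 14 in groups 4 to 8 and 5 of 13 in groups 9 to 13. With upper-quartile scaling the calls were 5 higher and 5 lower, since HOXA3 and HOXB2 were lost and HOXC10 and HOXD10 added. Of all genes 13.1% were then higher and 17.1% lower.

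HOXC13 had 12.3 and 14.3 TPM in deficient cells and 34.9 and 37.2 TPM in add-back cells. The log2 change was -1.22 ± 0.17 (adjusted p = 9.40e-05), and HOXC13 led its cluster in add-back cells but came after HOXC9 in deficient cells. HOXA13 had 0.621 and 0.525 TPM in deficient cells and 2.23 and 1.94 TPM in add-back cells, on 14 and 12 counts against 50 and 46 counts, a log2 change of -1.64 ± 0.34 (adjusted p = 0.00262). HOXB8 had 10.5 and 9.51 TPM in deficient cells and 4.90 and 4.54 TPM in add-back cells, 2.45-fold higher, with a log2 change of 1.29 ± 0.22 (adjusted p = 5.42e-04). These 3 genes stayed called whichever of the 4 libraries was left out, with an adjusted p of at most 0.0362. In such fits the lone library of a group is assumed to vary like the other group.

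HOXA7 had 49.3 and 43.8 TPM in deficient cells and 34.6 and 31.4 TPM in add-back cells, a log2 change of 0.71 ± 0.15 (adjusted p = 0.00213). HOXD8 had 28.7 and 25.7 TPM in deficient cells and 20.1 and 21.7 TPM in add-back cells, with 0.59 ± 0.16 (adjusted p = 0.0108). HOXD3 had 5.29 and 4.98 TPM in deficient cells and 3.00 and 4.00 TPM in add-back cells, with 0.76 ± 0.24 (adjusted p = 0.0245). In each of the 3 both deficient libraries lie above both add-back libraries in TPM. The same holds for HOXA2, HOXA3, HOXB2 and HOXB8, and with 2 libraries a group it adds little to a call. HOXA2 had 10.6 and 11.8 TPM in deficient and 8.64 and 8.08 TPM in add-back cells, with 0.64 ± 0.20 (adjusted p = 0.0274). The smallest changes were in HOXA3, with 77.3 and 67.0 TPM in deficient and 59.9 and 66.7 TPM in add-back cells and 0.40 ± 0.13 (adjusted p = 0.0362), and in HOXB2, with 60.7 and 51.4 TPM in deficient and 50.8 and 48.0 TPM in add-back cells and 0.40 ± 0.14 (adjusted p = 0.0473). HOXD9 had 22.5 and 11.3 TPM in deficient cells and 38.7 and 26.6 TPM in add-back cells, and its wide spread left -0.74 ± 0.26 (adjusted p = 0.041). Without add-back replicate 1 there were 4 calls and without add-back replicate 2 there were 5, where 14.3% and 13.9% of all genes were called. Without deficient replicate 1 there were 13 and without deficient replicate 2 also 13, where 38.7% and 35.1% of all genes were called. HOXC6, HOXC8, HOXC9, HOXC10 and HOXC4 were not called, with log2 changes between -0.53 and 0.08.

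The A498 comparison shares no library with those in 786-O. Among the 31 members tested in both lines, 3 were called in 786-O DMSO and 9 in A498, and 2 were common (66.7% and 22.2% of the lists), HOXD8 in the same direction and HOXA13 in opposite ones. Over all 14325 genes tested in both, 1001 calls were common (38.3% and 23.6%), 662 in the same direction and 339 in opposite ones. Of the 8 members called in A1331852, 4 were common with the 9 of A498 (50% and 44.4%), HOXB2, HOXB8 and HOXD3 in the same direction and HOXA13 in opposite ones. Over all genes 1512 calls were common there (36.9% and 35.7%), 955 in the same direction and 557 in opposite ones. The difference of the SETD2 effects, 786-O in DMSO minus A498, passed for HOXA13 and HOXB8 of 34 members, at log2 differences of 2.33 ± 0.37 (adjusted p = 8.24e-04) and -1.43 ± 0.24 (adjusted p = 0.00106). The log2 change of HOXB8 was -0.10 ± 0.14 (adjusted p = 0.667) in 786-O in DMSO and 1.29 ± 0.22 in A498. The background was 13.2% of genes called, 6.12% higher and 7.1% lower, and the split depended on scaling, with 1093 higher and 1269 lower by TMM and 1358 higher and 939 lower by upper-quartile factors. HOXD11, at 0.77 ± 0.27 (adjusted p = 0.0704), passed by DESeq2 and by upper-quartile factors, which made 2 higher and 1 lower.

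The 2 lines were then set side by side as WT 786-O in DMSO over A498 add-back. Line and batch cannot be told apart, because batch 3 holds all A498 libraries and no other, and the fitted values refer to the batch 1 level of 786-O. Of 34 members, 7 were higher in 786-O and 7 lower, where 47.4% of genes were called, 24.1% higher and 23.3% lower. All 7 tested members of groups 1 to 3 had a log2 difference above 0, with 3 called higher, while groups 9 to 13 had 2 called higher and 6 lower of 13.

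HOXA11 had 11.1, 12.5 and 9.71 TPM in 786-O WT DMSO and 105 and 109.6 TPM in A498 add-back, a log2 difference of -3.30 ± 0.24 (adjusted p = 4.16e-08). HOXA7 had 5.71, 5.55 and 5.12 TPM in 786-O WT DMSO and 34.6 and 31.4 TPM in A498 add-back, with -2.64 ± 0.31 (adjusted p = 4.97e-06). Between them HOXA9 and HOXA10, which lie in the stretch of the cluster from HOXA7 to HOXA11, differed by 0.61 ± 0.17 and -0.53 ± 0.17, and HOXA9 overlapped between the lines. HOXC13 had 0 of 80990923 counts in the WT DMSO libraries and 772 of 34652959 counts in the add-back libraries. Taking 3 counts over the group as the floor, it was 601-fold lower in WT DMSO, with an exact 95% lower limit of 488-fold. In KO DMSO it had 3 counts against 281 in A498 deficient cells, 250.7-fold lower, with an exact 95% interval from 84.91 to 1222.97. HOXD13, a digit gene, had 0 counts in WT DMSO and 67 counts in add-back cells. It was 52.2-fold lower on the same floor, with an exact 95% lower limit of 41.3-fold. HOXD12 had 10 counts in WT DMSO and 17 in add-back cells, which relative to library totals is 3.97-fold more in add-back cells, with an exact 95% interval from 1.72 to 9.71. Its call rests on a larger fitted log2 difference, -8.07 to -4.17 in the fits that left out a library. That value refers to the batch 1 level of 786-O and not to the 3.97-fold ratio.

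Higher in 786-O were HOXC4, with 11.1, 11.8 and 27.9 TPM in 786-O WT DMSO and 2.86 and 5.88 TPM in A498 add-back and a log2 difference of 2.40 ± 0.43 (adjusted p = 2.97e-04), and HOXB8, with 17.3, 16.5 and 20.3 TPM in 786-O WT DMSO and 4.90 and 4.54 TPM in A498 add-back and 2.07 ± 0.20 (adjusted p = 7.29e-07). HOXC4 in 786-O is the less even of the pair, since batch 1 held 27.9 TPM against 11.1 and 11.8 TPM in batch 2, and without WT DMSO replicate 3 its adjusted p was 0.0534. HOXA2 with 2.11 ± 0.31, HOXA3 with 1.47 ± 0.28, HOXB3 with 1.33 ± 0.16, HOXB9 with 0.63 ± 0.21 and HOXA9 were the other calls upward, and HOXC9 with -0.86 ± 0.23 and HOXA10 completed those downward. HOXA2, HOXA3, HOXA7, HOXA11, HOXB3, HOXB8, HOXC13, HOXD12 and HOXD13 held in all 5 fits that left out a library, though HOXD12 was not called with no batch term.

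**Figure D5:**
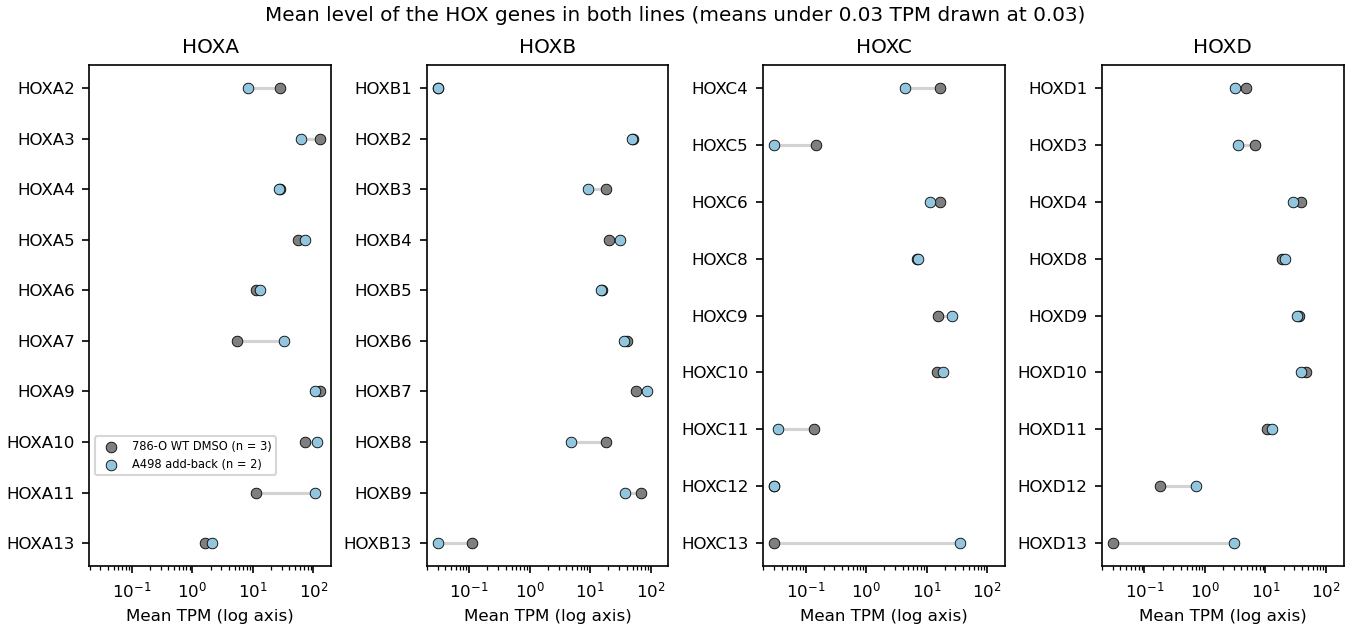
Mean TPM of the HOX genes shown in 786-O WT DMSO (grey) and A498 add-back (blue), on a log axis, by cluster, with the 3′ end at the top. HOXA7, HOXA11, HOXC13 and HOXD13 lie further right in A498, and HOXA2, HOXB8 and HOXC4 in 786-O. Means under 0.03 TPM are drawn at 0.03 TPM.

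Around the clusters, 18 noncoding RNAs named for them or known to lie in them were listed, and 11 were tested in 786-O. For this list and the neighbours, the shares of all genes called were 18.5% in KO DMSO, 28.2% in KO A1331852 against WT and 30.2% in A498. In KO DMSO only HOXA-AS3, an antisense transcript of the HOXA cluster, was called, at 0.82 ± 0.24 (adjusted p = 0.0314). In A1331852 none was called in KO against WT, and without WT A1331852 replicate 3 HOXB-AS1 was higher at 1.02 ± 0.29 (adjusted p = 0.0171) and HOXA10-AS lower at -0.67 ± 0.19 (adjusted p = 0.0192). In A498 1 was higher and 4 were lower of 11, HOXA-AS3 at -0.68 ± 0.20 (adjusted p = 0.0195), HOXA-AS2 at -0.47 ± 0.14 (adjusted p = 0.0182) and HOXA10-AS at -0.55 ± 0.17 (adjusted p = 0.0264) among the lower ones. The test of the difference between the lines passed for HOXA-AS3, at 1.47 ± 0.34 (adjusted p = 0.0104), which makes it the third transcript of the clusters, after HOXA13 and HOXB8, whose response to SETD2 differed between the lines. Counting used strand, per the file headers, so antisense reads were kept apart. Of the 15 protein-coding genes next to the clusters, 11 were tested in 786-O, and in KO DMSO SKAP1, beside HOXB1, was lower at -2.47 ± 0.44 (adjusted p = 0.00248) and CALCOCO2, on the HOXB13 side, higher at 0.50 ± 0.14 (adjusted p = 0.0308). In KO A1331852 against WT 1 neighbour was higher and 2 were lower. In A498 LNPK at -0.74 ± 0.14 (adjusted p = 0.00149) and CALCOCO1 at -0.82 ± 0.16 (adjusted p = 0.00161) were lower, of 10 tested.

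Of the cofactor genes, 8 of 9 were tested. In KO DMSO 1 was higher and 0 lower than in WT DMSO, in KO A1331852 0 were higher and 2 lower than in WT A1331852, and in A498 deficient cells 2 were higher and 1 lower than in add-back cells. Of all genes 18.5%, 28.2% and 30.2% were called there. MEIS3 was lower in A498 deficient cells at -1.65 ± 0.15 (adjusted p = 1.99e-06), and MEIS2 was higher at 0.43 ± 0.14 (adjusted p = 0.0296). In A1331852 MEIS1 and PKNOX1 were lower in KO than in WT cells, at -0.64 ± 0.22 (adjusted p = 0.0493) and -0.36 ± 0.11 (adjusted p = 0.0358).

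Of 27 Polycomb genes and H3K27 demethylases, 3 were higher and 3 lower in KO DMSO, 4 higher and 5 lower in KO A1331852 against WT, and 3 higher and 2 lower in A498 deficient cells. For this list and the next, the shares of all genes called were 18.5%, 28.2% and 30.2%, in that order. EED, the Polycomb subunit that reads the H3K27 mark, was lower in KO DMSO at -1.16 ± 0.19 (adjusted p = 0.00134). BMI1 was lower in A498 deficient cells at -0.57 ± 0.15 (adjusted p = 0.0108) and PHF19, which binds the SETD2-made H3K36 mark, was higher at 0.43 ± 0.13 (adjusted p = 0.0194) and in KO DMSO at 0.64 ± 0.13 (adjusted p = 0.00598). The Trithorax list held 18 genes, Trithorax and MLL-related ones together with DOT1L and the NSD genes. Of these, 1 was higher and 1 lower in KO DMSO, 1 higher and 3 lower in KO A1331852, and 1 higher in A498. MLLT10, a partner of DOT1L, was lower at -0.49 ± 0.12 (adjusted p = 0.0168) in KO DMSO, and MLLT3 was higher in A498 at 0.53 ± 0.14 (adjusted p = 0.0136).

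Retinoic acid is the best known signal that switches on 3′ HOX genes. Of 17 listed genes of its pathway and CDX factors, 10 were tested in 786-O and 9 in A498. RARB, the receptor that retinoic acid induces, was higher in KO than in WT cells in A1331852 at 1.99 ± 0.29 (adjusted p = 5.28e-04) and in DMSO at 1.71 ± 0.27 (adjusted p = 0.00108), and in A498 deficient cells at 0.51 ± 0.15 (adjusted p = 0.0186). ALDH1A2, an enzyme that makes retinoic acid, was higher in KO cells in A1331852 at 2.12 ± 0.44 (adjusted p = 0.00408) and in DMSO at 1.64 ± 0.40 (adjusted p = 0.0138). ALDH1A1, another such enzyme, was lower in KO A1331852 than in WT A1331852 at -2.04 ± 0.44 (adjusted p = 0.0048), lower in KO A1331852 than in KO DMSO at -4.23 ± 0.54 (adjusted p = 9.84e-04), and higher in A498 deficient cells at 1.25 ± 0.10 (adjusted p = 6.81e-07). The median log2 change of the list in KO A1331852 against WT was -0.27, with 3 higher and 2 lower (3 and 4 without WT A1331852 replicate 3), and in A498 it was 0.20, with 2 higher and 1 lower. Of all genes 28.2% were called in KO A1331852 against WT (32.5% without that library) and 30.2% in A498. Whether these genes have a part in the HOX levels was not tested.

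The same lists were read in the remaining comparisons. Of all genes 13.5% were called for A1331852 in KO cells, 47.4% between the lines and 13.2% for the difference of the SETD2 effects. In WT cells 0.141% were called. For the difference of the responses 0.295% were, and 2.96% without WT A1331852 replicate 3. In KO cells A1331852 against DMSO gave 1 lower neighbour, SKAP2 at -0.51 ± 0.12 (adjusted p = 0.0188), and 1 lower cofactor, MEIS1 at -1.19 ± 0.26 (adjusted p = 0.0124). PHC2 was the 1 higher Polycomb gene, at 1.38 ± 0.30 (adjusted p = 0.0133), and NSD2 and KMT2B were the 2 higher genes of the Trithorax list, at 0.69 ± 0.16 (adjusted p = 0.0168) and 0.53 ± 0.13 (adjusted p = 0.0177). ALDH1A1 and RARB, at -1.08 ± 0.30 (adjusted p = 0.0365), were the 2 lower retinoic acid genes, and 0 of 11 noncoding RNAs were called. In WT cells, and in the difference of the responses, no gene of the 6 lists was called by edgeR. Without WT A1331852 replicate 3, 1 cofactor and 1 retinoic acid gene passed for the difference of the responses, the second being ALDH1A1 at -2.83 ± 0.40 (adjusted p = 0.00315). Between 786-O WT DMSO and A498 add-back the retinoic acid list had 2 genes higher and 5 lower of 10, RARB among the lower ones at -3.74 ± 0.28 (adjusted p = 4.82e-08), and the cofactors had 2 higher and 2 lower of 8. The neighbours had 1 higher and 3 lower of 11, the Polycomb list 3 higher and 8 lower of 27, the Trithorax list 2 higher and 3 lower of 18, and the noncoding RNAs 1 higher and 3 lower of 12. The difference of the SETD2 effects between the lines passed for MEIS3 at 2.92 ± 0.59 (adjusted p = 0.00423), RARB at 1.17 ± 0.31 (adjusted p = 0.0204), EED at -0.98 ± 0.30 (adjusted p = 0.0401), RBBP4 at -0.61 ± 0.17 (adjusted p = 0.0321) and MLLT10 at -0.93 ± 0.21 (adjusted p = 0.00799), beside HOXA-AS3.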

How the data were processed

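Poly(A)-selected RNA was sequenced in 16 libraries as 150-base read pairs with strand kept. Per the file headers, the authors counted fragments per gene with featureCounts 1.5.0-p3 (strand setting 2) on GENCODE release 41 and GRCh38, and deposited these whole-number counts without normalization. The submitters' processing notes also name STAR, DESeq2 and MultiQC 1.7, with no role given. Rows without a gene name numbered 0.

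From the deposited counts, CPM and TPM were computed, TPM with the exonic lengths in the files. Differences were tested with edgeR 4.0.16 (quasi-likelihood, TMM factors, genes kept by filterByExpr at a minimum count of 10) in R 4.3.3, with Benjamini-Hochberg adjustment over all genes tested and an adjusted p under 0.05. One model with a batch covariate held the 12 libraries from 786-O, another the 4 from A498, and a last one all 16 for comparisons across lines. DESeq2 1.42.0 was an alternative, beside other scalings, filters, batch choices, a replicate block and leaving out each library. A gene at 0 counts over a group was set at a floor of 3 counts to give its fold a value, and intervals cover counting error only. The scripts were tested on simulated data.

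Each member that reached 1 CPM on average in some group, or was called, is named with values. Of other lists at most 4 called genes a comparison are named, taken from those with the smallest adjusted p, and some comparisons are given by counts alone. A few genes that this rule would name are not reported here by name, though counts, sums and medians include them. The members and lists were chosen with earlier results of these data known.

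Replicate numbers were checked for pairing across all genes. Deviations of same-numbered KO and WT libraries correlated at 0.628, 0.572 and 0.768 in DMSO and at 0.272, 0.282 and 0.509 in A1331852. In DMSO, KO replicate 1 with WT replicate 2 and KO replicate 2 with WT replicate 1, all of batch 2, correlated about as well, at 0.604 and 0.569. In A1331852 the same cross pairs correlated at 0.132 and 0.224. Pairing by number was therefore not shown for replicates 1 and 2, and only replicate 3 stood apart from the others. Across treatments same-numbered libraries correlated between -0.0451 and 0.055, and in A498 at 0.0967. No 2 replicates agreed within sampling noise, which would give a mean chi-square near 1 per gene. Replicates 1 and 2 came closest in DMSO, at 2.96 in KO and 3.47 in WT. Against replicate 3 they gave 82.11 and 89.88 in KO DMSO and 114.79 and 118.09 in WT DMSO. The value was 5.62 in A498 add-back and 16.79 in A498 deficient cells. Whether DMSO replicates 1 and 2 were separate cultures is not known.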

Additional observations from a re-analysis of the deposited data

Results flagged for a closer look

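HOXA13 and HOXB8 were the members whose change with SETD2 differed between the lines by a direct test. For HOXA13 the difference of the log2 changes, 786-O in DMSO minus A498, was 2.33 ± 0.37 (adjusted p = 8.24e-04 by edgeR's quasi-likelihood test), and KO lay above WT in 786-O while deficient lay below add-back in A498. It rests on 330 counts in KO DMSO, 161 in WT DMSO, 26 in A498 deficient and 96 in A498 add-back cells. For HOXB8 the difference was -1.43 ± 0.24 (adjusted p = 0.00106), and deficient lay above add-back in A498. In 786-O its log2 change was -0.10 ± 0.14 for KO against WT in DMSO and 0.46 ± 0.14 (adjusted p = 0.0301) in A1331852, the same direction as in A498. Each held in all 10 fits that left out a library. Line and batch cannot be told apart in this test.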

How the results depend on the processing

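DESeq2 called 5 for KO against WT in DMSO, 13 for KO against WT in A1331852 and 6 in A498, where it called 22.5%, 31.8% and 23.2% of all genes. Upper-quartile factors and a mean of at least 50 counts each called 5 in DMSO, where 18.1% and 18.3% of all genes were called. With no low-count filter 1 was called for A1331852 in WT cells, beside 2.66% of all genes. Against a log2 threshold of 1 the counts were 0 for KO against WT in DMSO, 0 in A1331852, 0 for A1331852 in KO cells, 0 in A498, 9 between the lines and 1 for the difference of the SETD2 effects. The shares of all genes called were 2.45%, 3.73%, 1.33%, 3.33%, 18.6% and 2.54%, in the same order. The replicate block called 7 in DMSO, 14 in A1331852, 13 for A1331852 in KO cells, 5 for A1331852 in WT cells, 0 for the difference of the responses, 13 in A498, 17 between the lines and 4 for the difference of the SETD2 effects. It also called more of all genes than the main fit, 29.9%, 39.7%, 26.5%, 17.4%, 2.05%, 37.7%, 51.5% and 20.9% in the same order. With no batch term 0 were called in DMSO and 2 for A1331852 in KO cells, where 9.16% of all genes were called in each. Batch 1 alone called 5 for KO against WT in A1331852, where it called 13.7% of all genes. The calls for A1331852 in KO cells did not hold in batch 1 alone. It has 1 KO DMSO library, so that fit cannot decide them. After seeing the data, the block within treatment (7 in DMSO, 11 in A1331852, 0 for the difference of the responses) and batch 2 alone (17 in DMSO) were added. Over all genes these called 28.6%, 38.6%, 1.81% and 55.7%, in that order. The cause of these shifts was not tested, except that single batches hold fewer libraries. Leaving out each library gave 0 to 1 in DMSO, 6 to 14 in A1331852, 0 to 4 for A1331852 in KO cells, 0 to 0 in WT cells, 0 to 1 for the difference of the responses, 4 to 13 in A498, 10 to 15 between the lines and 2 to 2 for the difference of the SETD2 effects. Of all genes, the leave-out fits within 786-O called 9.63% to 10.6% in DMSO, 20.3% to 32.5% in A1331852 and 4.68% to 15.5% for A1331852 in KO cells. They called 0 to 0.38% in WT cells and 0 to 2.96% for the difference of the responses. Across the lines, the fits without 1 WT DMSO library called 24.8% to 44.7% of all genes between the lines. For the difference of the SETD2 effects, those without 1 of the 786-O DMSO libraries called 8.46% to 10%. Over all called members and alternatives, 403 values kept their call, 148 lost it and 0 changed sign. Depth limits the members with few counts, HOXB13, HOXC5, HOXC11, HOXD12, HOXD13 and HOXA13 among them.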
